A study of Mus musculus with 57 samples.

Results

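Sham surgery in this mouse kidney study was the whole operation for renal ischemia without clamping of the renal pedicles, and its effect on the nephron epithelium is described here. The members were chosen by their titles: 3 arrays of nephron RNA taken 24 h after sham surgery and 3 arrays of nephron RNA from mice that had no surgery, 6 of the 57 arrays in the series. All genes with a single symbol per probe set were read, and 19244 genes were tested. The study purified RNA bound to tagged ribosomes from 4 kidney cell compartments with and without ischemia, and hybridised it to Affymetrix Mouse Gene 1.0 ST arrays. The comparison asks what the operation alone, without ischemia, leaves changed in nephron cells a day later.

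Both groups carried the six2-CRE allele and the Rosa26-CAGGS-eGFPL10a allele, and all mice were male and of mixed C57BL/6 and 129 strain background. Cre activity in nephron progenitors removes a block in front of eGFPL10a, a green fluorescent version of ribosomal protein L10a, so the tag stays in the descendants of those progenitors, the main body of the nephron. In translating ribosome affinity purification (TRAP), antibodies to the fluorescent tag pull down the tagged ribosomes and the messages on them. The sham mice were 8 weeks old, received ketamine and xylazine anaesthesia, were kept at 37 °C, and had flank incisions without clamping. The mice without surgery were 6 weeks old. Anaesthesia, warming, incision and the age difference cannot be told apart in this comparison. The labels give neither the hour of collection nor the share of each strain in an animal, and the part of either in the results was not tested. The replicates are labelled as biological and no more is stated about them, so the spread between arrays may in part be technical. The p-values use a spread within groups pooled over 45 arrays in 15 groups, not that of these 6 arrays alone. Genes whose replicates lie close here can thus have a large SE, and the reverse.

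The nephron epithelium reabsorbs most of what the glomerulus filters, and its segments (proximal tubule, thick ascending limb, distal convoluted tubule) are defined by their own transporters. Injured tubule cells are known for inducing Havcr1, which encodes the surface receptor KIM-1, and Lcn2, which encodes the secreted iron-carrier protein NGAL. Kidney tubules run a strong circadian clock, in which the Arntl and Clock proteins drive the Per, Cry, Nr1d and Dbp genes, whose products in turn repress or tune the cycle. Most tubule cells of an adult mouse are not dividing, whereas the kidney of a young mouse still grows. The messages of dividing cells rise and fall together, since many are controlled through shared promoter elements.

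The 6 arrays were alike in brightness, with median intensities from 110 to 122. The total kidney RNA arrays, which share the main model, were dimmer, with medians from 43.9 to 53.3. Correlations of log2 values ran from 0.99523 to 0.9962 within the sham group, from 0.99579 to 0.9965 within the unoperated group, and from 0.99042 to 0.99391 between the groups. The first principal component held 50.2% of the variance and placed the sham arrays at 16.63, 8.809 and 16.96 and the unoperated arrays at -17.85, -15.06 and -9.487.

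The labelled compartment was checked against marker lists. The mean log2 level over 32 proximal tubule markers was 12.13 to 12.28 in the sham arrays and 12.24 to 12.30 in the unoperated arrays. Slc34a1, the main phosphate transporter of the proximal tubule, read 13.13, 13.07 and 13.19 after sham surgery and 13.24, 13.24 and 13.25 without surgery. The groups did not overlap for Slc34a1, but the difference of -0.11 ± 0.15 did not pass the test. Endothelial markers averaged 7.32 to 7.49 and 7.27 to 7.45 in the sham and unoperated arrays, against 11.64 to 11.85 in the endothelial line without surgery. Macrophage markers averaged 7.06 to 7.31 and 6.88 to 7.24, against 12.20 to 12.27 in the myeloid line. Podocyte markers averaged 7.86 to 8.04 and 8.00 to 8.17, below the 8.90 to 9.34 of sham kidneys of untagged wild-type mice. The tubule lists of the untagged sham kidneys averaged 12.42 to 12.45 (proximal), 9.94 to 10.03 (thick ascending limb), 10.35 to 10.41 (distal convoluted) and 9.34 to 9.40 (collecting duct). The corresponding nephron sham means were 12.13 to 12.28, 10.48 to 10.70, 10.19 to 10.24 and 9.05 to 9.18. Of these tubule lists, only the thick ascending limb was thus higher in the nephron sham arrays than in the untagged ones. The other 3 were lower, as podocyte markers were. The thin limb and papilla markers were higher too, at 9.51 to 9.83 against 8.86 to 8.87 in the untagged arrays. In bulk samples, fewer cells of a type and less RNA per cell cannot be told apart.

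After sham surgery the nephron had lower levels of 7 messages of cell division, lower Arntl and Nfil3, and lower Hspa8 and Bag3, while the classical tubular injury, acute phase, cytokine and immediate early genes gave no call. In a limma model over 45 arrays (the 4 lines and total kidney RNA), 311 of 19244 genes (1.62%) were called at a Benjamini-Hochberg adjusted p under 0.05. Of these, 137 (0.712%) rose and 174 (0.904%) fell. When each array was centred on its median, the split was 57 higher and 160 lower, so that 26.3% in place of 44.1% of the calls were higher. At least 2-fold changes were fewer, with 10 genes higher and 32 lower, and the median absolute log2 change among the called genes was 0.55. The log2 fold change over all genes tested had a median of 0.03. In 305 of the 311 called genes the 3 sham arrays all lay on the same side of the 3 unoperated arrays, as they did in 28.1% of all genes tested.

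**Figure D1:**
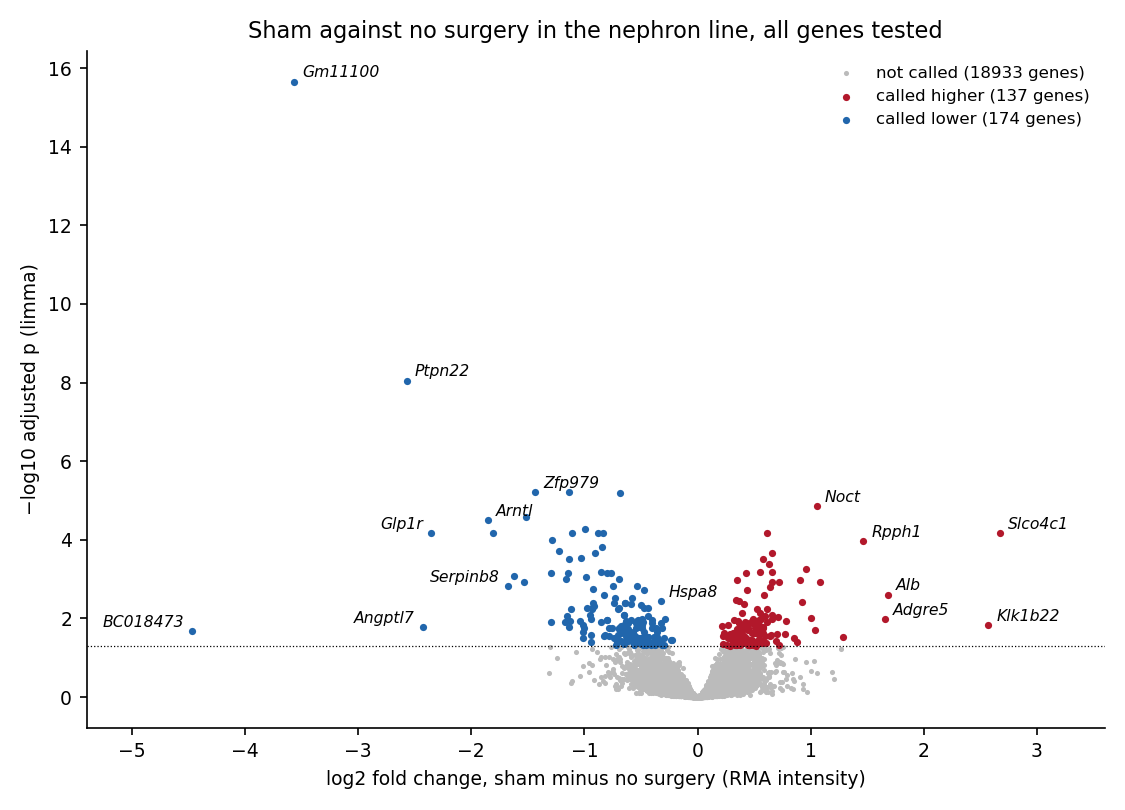
Each point is a gene, with the log2 fold change (sham minus no surgery, 3 arrays each) on the horizontal axis. The vertical axis is minus log10 of the Benjamini-Hochberg adjusted p from limma. The 137 called higher and 174 called lower genes stand out from the genes not called, and the lower side reaches farther, to BC018473 at -4.47 against Slco4c1 at 2.67.

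The genes that rose most were a transporter, a protease and a plasma protein message. Values are log2 intensities in replicates 1, 2 and 3 of each group, fold changes are log2 differences ± SE from the model, and every adjusted p is limma's. Slco4c1, an organic anion transporter of the proximal tubule, read 7.88, 8.05 and 8.16 after sham surgery and 5.33, 5.49 and 5.26 without surgery. The groups were far apart, with a difference of 2.67 ± 0.38 (6.37-fold, adjusted p = 6.74e-05). Klk1b22, a secreted serine protease of the kallikrein family, read 9.84, 9.88 and 10.08 in the sham arrays and 7.41, 7.35 and 7.33 in the unoperated arrays. All sham values lay above all others, and the rise was 2.57 ± 0.58 (5.94-fold, adjusted p = 0.0148). The mouse Klk1b genes are near-identical copies, so which of them gave the signal is uncertain. Of 22 genes with Klk symbols, Klk1b22 was the single call, beside 1.62% of all genes called. Alb, serum albumin, which the liver makes in bulk, read 8.73, 8.52 and 9.03 after sham surgery and 6.99, 7.18 and 7.06 without. Alb thus rose by 1.68 ± 0.32 (3.21-fold, adjusted p = 0.00246) with no overlap.

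Adgre5, the adhesion receptor CD97 of blood cells and some epithelia, stood at 9.89, 9.64 and 9.41 in sham kidneys and at 8.09, 8.19 and 7.71 in unoperated kidneys. It rose by 1.65 ± 0.35 (3.15-fold, adjusted p = 0.0102). Noct, nocturnin, a clock-controlled phosphatase, gave 10.29, 9.86 and 10.24 against 9.11, 9.11 and 9.01. Its rise of 1.05 ± 0.13 had an adjusted p of 1.36e-05, and the unoperated arrays were nearly equal. The other 10 genes of the 15 that rose most had smaller rises, from 0.72 to 1.04. They were Niban1, a stress-responsive protein (1.04), Klhl6, known from B cells (1.01), Colgalt2, a collagen galactosyltransferase (0.96), and Cox6a2, the muscle form of a cytochrome oxidase subunit (0.92). Akap1, which anchors protein kinase A to mitochondria, rose by 0.91, the matrix protein fibromodulin (Fmod) by 0.88 and the receptor Tlr12 by 0.79. Slco2b1, a further organic anion transporter, rose by 0.77, and Car11, a carbonic anhydrase-like protein, and Smim26 each rose by 0.72. Members of the Slco family made up 3 of the 137 higher calls, out of 13 tested, where 0.712% of all genes rose, the last being Slco1a4 (0.58). It was picked out after its values were seen.

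Several of these calls were lost when 1 array was left out. Klk1b22 lost its call without sham replicate 1 (adjusted p = 0.0585), sham replicate 3 (0.0682), no surgery replicate 1 (0.0603) or no surgery replicate 2 (0.0589). Adgre5 lost it without sham replicate 1 (0.0697) or no surgery replicate 3 (0.0515), and Klhl6 without sham replicate 1 (0.0954) or no surgery replicate 2 (0.055). For Cox6a2 it was no surgery replicate 1 (0.0603) or sham replicate 3 (0.0506), and for Tlr12 no surgery replicate 1 (0.0865) or sham replicate 2 (0.0869). Niban1 lost the call without sham replicate 1 or 3 or no surgery replicate 1 or 3 (0.0793 to 0.124). Slco2b1 lost it without sham replicate 1 or 3 or no surgery replicate 1 or 2 (0.0878 to 0.172). Fmod (0.0674 to 0.248) and Smim26 (just over 0.05 to 0.28) lost it whichever of the 6 arrays was left out. Slco4c1, Alb, Noct, Colgalt2, Akap1 and Car11 were called under every alternative tried.

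The genes that fell most included a phosphatase of lymphocytes, a secreted angiopoietin relative, the incretin receptor and a core clock gene. Ptpn22, a tyrosine phosphatase best known from lymphocytes, read 6.86, 8.32 and 7.03 after sham surgery and 10.16, 9.93 and 9.84 without. It fell by 2.57 on the log2 scale (SE 0.23, adjusted p = 8.89e-09), although sham replicate 2 stood more than 1 log2 unit above the other sham arrays. Angptl7, angiopoietin-like 7, read 9.13, 9.64 and 9.06 against 11.64, 11.73 and 11.73. The groups were well apart and the change was -2.42 ± 0.56 (5.36-fold lower, adjusted p = 0.0165). Its call was lost without any array but sham replicate 2 (adjusted p from 0.0513 to 0.083). Glp1r, the receptor for the gut hormone GLP-1, read 6.62, 6.49 and 6.67 after sham surgery and 9.15, 9.03 and 8.67 without. Glp1r fell by 2.36 (SE 0.34, adjusted p = 6.74e-05), to a level at which the 6.60 of wild-type sham kidneys also stood.

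Wdfy1, a protein of endosomes, had sham values of 7.66, 7.53 and 7.82 and unoperated values of 9.55, 9.47 and 9.42. Its change was -1.81 ± 0.26 (3.51-fold lower, adjusted p = 6.74e-05), with narrow groups on both sides. Serpinb8, an intracellular protease inhibitor, read 8.09, 7.89 and 8.16 against 9.73, 9.89 and 9.54, and fell by 1.67 (SE 0.30, adjusted p = 0.00152). Fcamr, a receptor for the Fc part of IgA and IgM, read 7.86, 8.22 and 8.56 against 9.90, 9.54 and 10.06, and fell by 1.62 (SE 0.28, adjusted p = 0.000854). No sham array reached the lowest unoperated array in any of these genes. Smaller falls were those of Olfml2b, a matrix glycoprotein (-1.52), the zinc finger gene Zfp979 (-1.44), Pde6a, a cyclic GMP phosphodiesterase (-1.29), Mdk, the growth factor midkine (-1.22), Clec2h, a C-type lectin (-1.17), and Fkbp1b, a calcium channel regulator (-1.16). After sham surgery Zfp979 stood under the filter level of log2 5, at 4.64, 4.57 and 4.63. For Fkbp1b, no surgery replicate 2 (7.34) lay closer to the sham arrays (7.02, 6.97 and 7.19) than to the other unoperated arrays (8.78 and 8.53). Fkbp1b lost its call in the fit of the 6 arrays alone (adjusted p = 0.0703). Clec2h lost its call without sham replicate 1 (adjusted p = 0.134) or no surgery replicate 2 (0.146).

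Ptpn22, Klhl6, Adgre5, Tlr12 and Fcamr are genes known from blood cells. No member of the macrophage (26 tested), neutrophil (15) or lymphocyte (13) lists was called by limma, and 0 had an unadjusted p under 0.05. Over all genes 1.62% were called and 2337 of 19244 had such a p, so that 0 calls in lists of this size is near the background. The lymphocyte markers averaged 5.89 to 6.01 in the sham arrays and 5.81 to 5.97 in the unoperated arrays. The neutrophil markers averaged 6.44 to 6.52 and 6.32 to 6.42, so that the sham arrays lay slightly higher without overlap. The part of leukocyte RNA in the values of these genes was not tested.

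Predicted genes and small RNAs made up 16 of the higher and 16 of the lower calls and were left out of the ranking above. BC018473, a predicted gene chosen after its values were seen, read 6.34, 6.32 and 6.41 after sham surgery and 11.71, 10.07 and 10.69 without. Gm11100, chosen in the same way, read 5.51, 5.64 and 6.00 against 9.67, 8.87 and 9.30. Both were bright in every unoperated nephron array and below the array median (log2 6.83 to 6.93) in every sham array, with changes of -4.47 ± 1.06 (adjusted p = 0.021) and -3.56 ± 0.17 (adjusted p = 2.19e-16). Gm11100 averaged between 5.44 and 5.58 in the interstitial, endothelial and myeloid lines, with and without sham surgery. BC018473 averaged 6.32 in both endothelial groups but 10.17 and 12.12 in the unoperated and sham myeloid groups. Rpph1, the RNA of ribonuclease P, rose by 1.47 ± 0.22 (adjusted p = 0.000107), from 9.44, 9.33 and 9.42 to 11.18, 10.67 and 10.73. Rny3, a small Y RNA bound by the Ro protein, rose by 1.08 ± 0.19 (adjusted p = 0.00117). None of 50 small nucleolar RNAs was called by limma, beside 1.62% of all genes, and 3 had an unadjusted p under 0.05. Of all 19244 genes, 2337 had such a p.

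**Figure D2:**
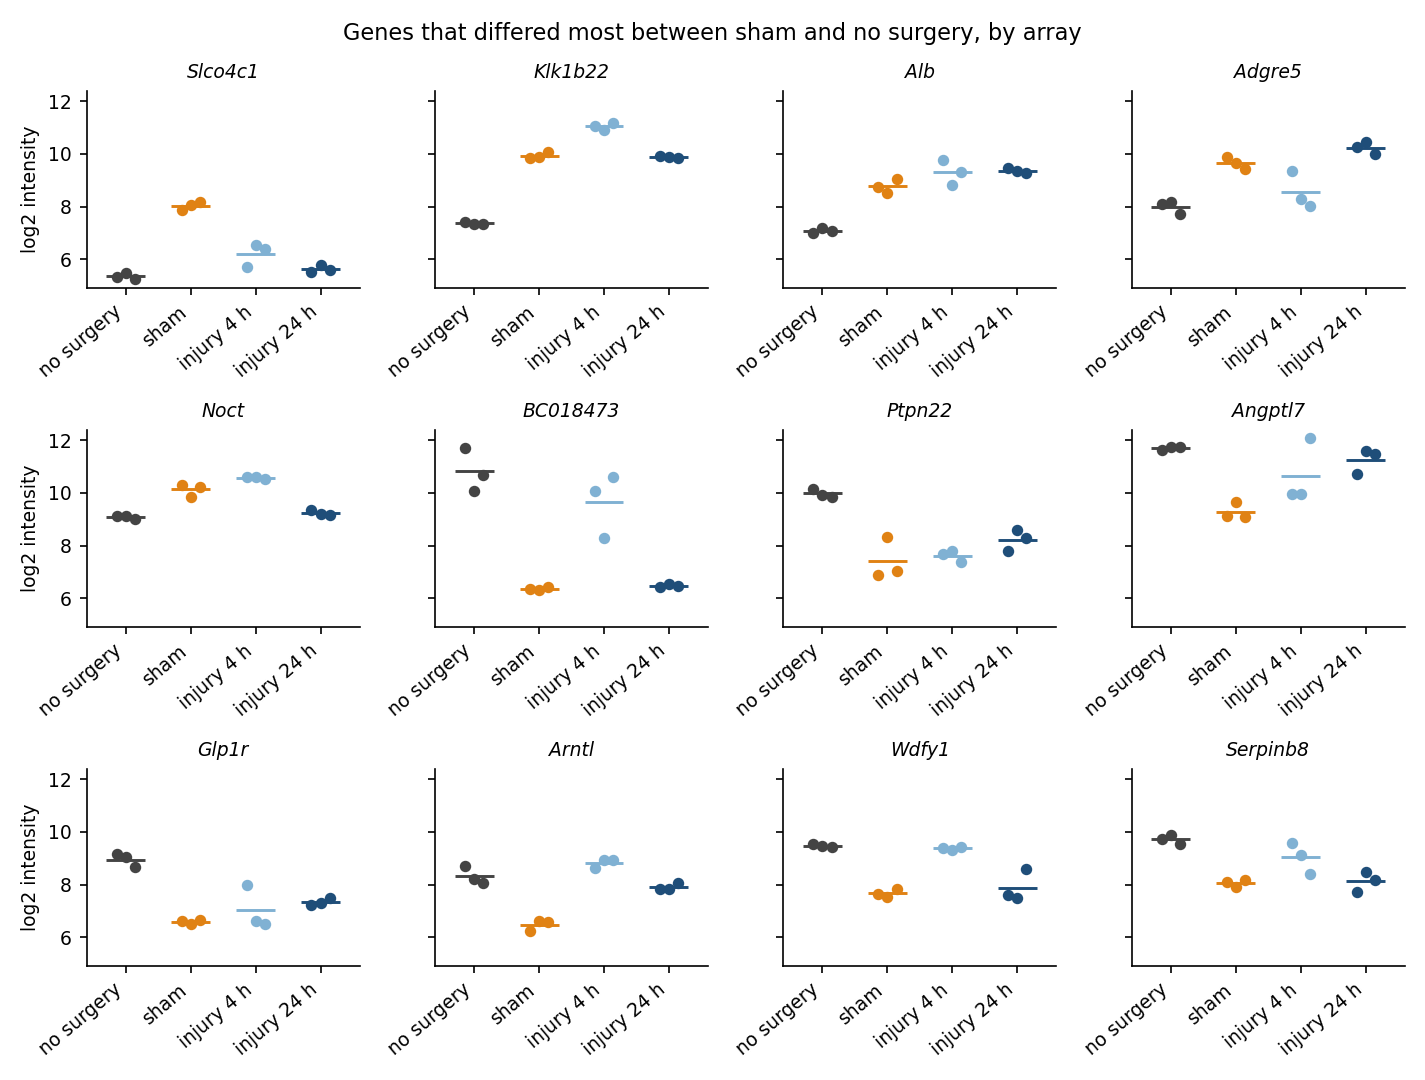
Points are log2 intensities of single nephron arrays and bars are group means (n = 3) for 12 genes in mice without surgery, after sham surgery, and 4 h and 24 h after ischemia. Slco4c1 was high in the sham arrays alone (7.88 to 8.16), whereas BC018473 was low in both groups taken at 24 h (6.32 to 6.52) and higher in every array taken at 4 h (8.28 to 10.61).

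The 2 ischemia groups of the nephron line give the levels of the same genes beside sham surgery. Comparisons of ischemia with sham surgery share the sham arrays, so only levels are set side by side. The mice of both ischemia groups carried the same alleles and were 8 weeks old, like the sham mice. Slco4c1 read 5.69, 6.52 and 6.39 at 4 h after ischemia and 5.50, 5.77 and 5.58 at 24 h, all below the sham arrays and above or close to the unoperated ones. Klk1b22 read 11.07, 10.91 and 11.19 at 4 h and 9.90, 9.87 and 9.85 at 24 h. The 24 h values thus lay among the sham values, and the 4 h values above them. Ptpn22 stayed low in both ischemia groups, at 7.66, 7.80 and 7.37 and at 7.78, 8.59 and 8.27. Wdfy1 read 9.37, 9.30 and 9.44 at 4 h, next to the unoperated arrays, and 7.61, 7.47 and 8.57 at 24 h. BC018473 showed the same order, with 10.08, 8.28 and 10.61 at 4 h and 6.43, 6.52 and 6.46 at 24 h. Noct was highest at 4 h (10.60, 10.59 and 10.54) and near the unoperated level at 24 h (9.36, 9.22 and 9.14). The gene levels of the sham arrays thus had no fixed place between the other nephron groups.

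Some messages of the G2 and M phases of the cell cycle were lower after sham surgery. Of 30 cell cycle genes tested, 7 fell (Ccna2, Ccnb2, Cdk1, Ube2c, Plk1, Kif20a and Kif11) and 0 rose, beside 0.904% of all genes that fell. The list's median log2 change was -0.32 against 0.03 over all genes, and 25 of the 30 lay below 0, as did 41.2% of all genes. For 5 of the 7, RefSeq promoters were at hand, and the 150 bases before each gene start (GRCm38.p6, on the gene's strand, 5′ to 3′) are shown because CCAAT boxes and the cell cycle homology element TTTGAA are known features of G2 and M phase promoters. Capitals mark the CCAAT box, the homology element and its known variant with TTTAAA as its letters, each on either strand.
Ccnb2, chr9:70421555-70421704, minus strand: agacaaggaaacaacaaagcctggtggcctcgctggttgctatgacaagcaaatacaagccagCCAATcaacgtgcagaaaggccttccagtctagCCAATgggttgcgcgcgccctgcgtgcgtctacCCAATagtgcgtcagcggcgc
Cdk1, chr10:69352913-69353062, minus strand: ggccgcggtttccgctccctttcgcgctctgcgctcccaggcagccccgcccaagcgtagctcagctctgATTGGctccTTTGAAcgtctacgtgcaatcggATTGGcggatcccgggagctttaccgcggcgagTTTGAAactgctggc
Kif11, chr19:37376232-37376381, plus strand: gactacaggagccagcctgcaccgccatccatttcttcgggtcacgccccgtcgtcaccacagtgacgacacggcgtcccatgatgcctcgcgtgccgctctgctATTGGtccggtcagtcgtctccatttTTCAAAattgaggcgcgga
Plk1, chr7:122159285-122159434, plus strand: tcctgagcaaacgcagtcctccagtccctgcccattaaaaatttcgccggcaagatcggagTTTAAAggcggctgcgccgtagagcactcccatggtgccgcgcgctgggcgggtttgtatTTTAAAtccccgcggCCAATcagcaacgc
Ube2c, chr2:164769779-164769928, plus strand: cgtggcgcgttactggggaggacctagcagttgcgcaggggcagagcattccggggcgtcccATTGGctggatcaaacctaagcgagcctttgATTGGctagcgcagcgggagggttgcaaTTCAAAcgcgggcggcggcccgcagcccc

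CCAAT, whose other strand is written as ATTGG when read in the same direction, lay in all 5 of these windows, and in 24.5% of the 32851 promoter windows of the same length. At least 2 copies lay in 3 of the 5 windows (Ccnb2, Cdk1 and Ube2c), against 6.02% of all windows. The homology element TTTGAA, whose other strand is written as TTCAAA when read in this way, lay in 3 windows (Cdk1, Kif11 and Ube2c), against 9.07% of all. Counting TTTAAA as well, which is its own reverse complement, 4 of 5 windows had a match, against 14.7% of all. Ccnb2 had neither of these letters in its window, and Plk1 had TTTAAA alone. No marked motif overlapped another in the 5 windows, and a match describes the letters, not a bound site. Promoters on chr18 were left out, both from the lookup of these genes and from the 32851 windows. Ccna2 and Kif20a had no entry among the promoters that were read.

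Ccna2, the cyclin A of S and G2 phase, read 6.62, 6.50 and 6.68 after sham surgery and 7.96, 8.58 and 7.86 without. Its fall of 1.53 (SE 0.27, adjusted p = 0.00116) was the largest of the list. Ccnb2, a cyclin of mitotic entry, read 7.48, 7.37 and 7.51 against 8.56, 9.15 and 8.54 and fell by 1.29 (SE 0.22, adjusted p = 0.000691). Cdk1, the kinase both cyclins serve, read 7.56, 7.88 and 7.67 against 8.51, 9.02 and 8.41, a change of -0.94 ± 0.23 (adjusted p = 0.0262). The groups did not overlap in these genes, and no surgery replicate 2 was the highest array in each. Ube2c, which feeds ubiquitin to the anaphase-promoting complex, read 7.10, 6.95 and 7.30 against 7.74, 8.25 and 7.93 and fell by 0.85 (SE 0.14, adjusted p = 0.000646). Plk1, the polo-like kinase of mitosis, fell by 0.85, and the mitotic kinesins Kif20a and Kif11 fell by 0.69 and 0.57. Outside the list, and chosen after their values were seen, Foxm1, a transcription factor of G2 phase genes (-0.74), and Knstrn, a spindle protein (-0.78), also fell.

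The 5 members above 0 were the S phase genes Mcm6, Mcm2, Pcna, Tyms and Ccne1, and none was called. Other S phase genes lay below 0, also without a call: Mcm3 (-0.21), Mcm5 (-0.29), Rrm2 (-0.38) and E2f1 (-0.06). Mcm6, a subunit of the replicative helicase, had a difference of 0.55 ± 0.22 (adjusted p = 0.271). Mki67, the proliferation antigen, differed by -0.75 ± 0.23 and was not called either (adjusted p = 0.105), although all its sham values (6.18 to 6.64) lay below all unoperated values (6.90 to 7.55). Leaving out 1 array moved the number of cell cycle genes that fell to between 4 and 7. It was 4 without sham replicate 1 and 4 without no surgery replicate 2, and Ccna2, Ccnb2, Kif20a and Ube2c remained in both. Cdk1 lost its call without sham replicate 1 (adjusted p = 0.131), sham replicate 3 (0.0967), no surgery replicate 1 (0.0646) or no surgery replicate 2 (0.207). Without the total RNA arrays, in a model of 39 arrays of the 4 lines, 8 of the 30 fell, Aurka (-0.35, adjusted p = 0.0307) being the addition, where 4.71% of all genes were called, 2.63% lower and 2.08% higher.

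Members of the list fell in other lines too. They fell in 6 of 30 cases in the interstitial line (4.91% of all genes fell there), 17 of 30 in the endothelial line (0.483%) and 4 of 30 in the myeloid line (1.27%). The sham change of Ccna2 was -0.99 in the interstitial, -1.39 in the endothelial and -0.63 in the myeloid line, the last not called (adjusted p = 0.333). No cell cycle gene was called in the test of the nephron change against the mean change of the other lines, and for Ccna2 that difference was -0.53 (adjusted p = 0.491). Mice of both groups were equally old in the other lines, 6 weeks in the interstitial and endothelial lines and 7 weeks in the myeloid line.

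**Figure D3:**
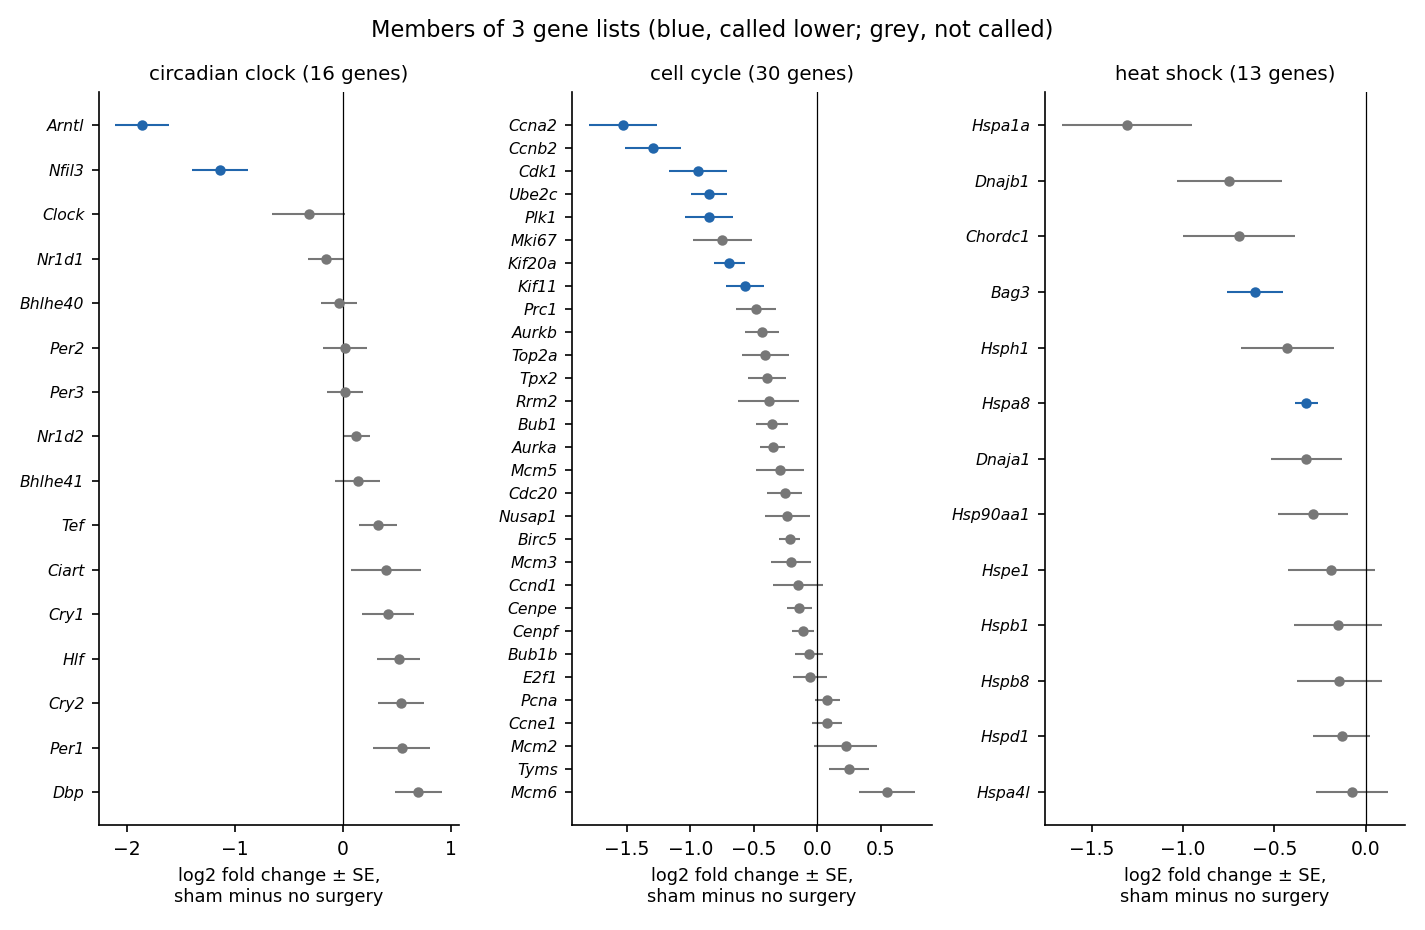
Points are log2 fold changes (sham minus no surgery) and bars are ± SE from the limma model for the tested members of the circadian clock (16), cell cycle (30) and heat shock (13) lists. Arntl and Nfil3 lie farthest left among clock genes, 25 of 30 cell cycle genes lie below 0, and all 13 heat shock genes lie below 0, of which Hspa8 and Bag3 were called.

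Among 16 clock genes, Arntl and Nfil3 fell and none rose, beside 0.904% of all genes that fell and 0.712% that rose. Arntl, which encodes the positive clock factor BMAL1, read 6.23, 6.60 and 6.59 after sham surgery and 8.69, 8.23 and 8.06 without. The groups lay well apart, and Arntl fell by 1.86 (SE 0.25, 3.62-fold, adjusted p = 3.14e-05). Nfil3, a repressor that competes with Dbp for the same sites, read 7.33, 7.90 and 7.74 against 9.08, 8.87 and 8.43, and changed by -1.14 ± 0.26 (adjusted p = 0.0168). Nfil3 lost its call without sham replicate 1 (adjusted p = 0.13), no surgery replicate 1 (0.13) or no surgery replicate 2 (0.0767). Dbp, an output of the clock, read 11.57, 11.55 and 11.56 in the sham arrays and 10.49, 11.06 and 11.03 in the unoperated arrays. Dbp did not overlap between the groups, but its difference of 0.70 ± 0.22 was not called (adjusted p = 0.113).

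Other members of the opposite arm also had values above 0 without a call: Per1 0.55, Cry2 0.54, Hlf 0.52 and Tef 0.33. Of these, Hlf was called in the 39-array model (adjusted p = 0.0424). Clock itself, the partner of Arntl, stood at -0.31 and Nr1d1 at -0.16, neither called. The median of the list was 0.13, so Arntl and Nfil3 went against the sign of most members. Noct, the clock-controlled gene named above, rose and was not on the list. At 4 h after ischemia Arntl read 8.64, 8.93 and 8.93 and Nfil3 11.08, 11.03 and 11.18. At 24 h they read 7.83, 7.83 and 8.06 and 9.08, 8.96 and 8.70, so the sham group had the lowest values of the nephron line for both genes.

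A pair of heat shock messages fell. Of 13 heat shock genes tested, Hspa8 and Bag3 fell and 0 rose, beside 0.904% of all genes that fell. Every one of the 13 had a value below 0, as did 41.2% of all genes, and the median was -0.32. Hspa8, the constitutive cytosolic chaperone Hsc70, read 12.73, 12.83 and 12.76 after sham surgery and 13.11, 13.12 and 13.07 without. The change was small but the arrays of each group agreed closely, at -0.33 ± 0.06 (1.25-fold lower, adjusted p = 0.00357). Bag3, a co-chaperone of Hsp70, read 10.17, 10.28 and 9.88 against 10.85, 10.50 and 10.80 and changed by -0.61 ± 0.15 (adjusted p = 0.0322). Its call was lost without sham replicate 1 (0.08) or 3 (0.228) or no surgery replicate 1 (0.188) or 3 (0.116). Hspa1a, the inducible Hsp70, had the largest difference of the list, -1.31 ± 0.36, with values of 9.39, 9.97 and 9.97 against 11.47, 10.53 and 11.25. It was not called (adjusted p = 0.0541), whereas the 39-array model called it (adjusted p = 0.0196) together with Dnajb1. Between 1 and 3 of the 13 fell when single arrays were left out. In the interstitial, endothelial and myeloid lines the list medians were -0.02, -0.09 and -0.13, and 0 of the 13 fell. Hspa8 rose in the interstitial line (0.24, limma adjusted p = 0.0118). Its nephron change differed from the mean change of the other lines by -0.33 (limma adjusted p = 0.0163).

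The list of unfolded protein response and ATF4 genes gave 0 calls among 18, with 13 below 0 and a median of -0.16. Over all genes 1.62% were called and 41.2% lay below 0. Atf4, the transcription factor of the integrated stress response, read 8.44, 8.53 and 8.41 against 9.11, 8.91 and 8.95, a difference of -0.53 ± 0.16 (adjusted p = 0.0875). Xbp1, which is spliced under stress of the endoplasmic reticulum, read 11.36, 11.55 and 11.47 against 11.91, 12.11 and 11.89, a difference of -0.51 ± 0.16 (adjusted p = 0.0992). Neither overlapped between the groups, and both were called lower in the 39-array model (adjusted p = 0.000958 and 0.00155).

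Genes of tubular injury and inflammation did not pass the test. Calls were 0 of 19 for tubular injury, 0 of 22 for immediate early and AP-1 genes, 0 of 23 for the acute phase, 0 of 24 for cytokines, chemokines and NF-kB, and 0 of 18 for the interferon response, near the 1.62% called over all genes. Over all genes, 2337 had an unadjusted p under 0.05, among them 2 immediate early, 1 acute phase, 1 cytokine, 3 interferon and 0 tubular injury genes. Havcr1 read 10.54, 10.47 and 10.90 after sham surgery and 9.36, 11.28 and 9.88 without. The groups overlapped through no surgery replicate 2, the highest of the 6 arrays, and the difference was 0.46 ± 0.74 (adjusted p = 0.874). Without that array it was 1.02, still not called (adjusted p = 0.836). Lcn2 read 10.11, 10.51 and 10.76 against 9.36, 10.57 and 9.24, again with no surgery replicate 2 among the sham values, and differed by 0.73 ± 0.48 (adjusted p = 0.59).

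At 24 h after ischemia Havcr1 read 12.98, 12.91 and 12.80 and Lcn2 read 12.89, 12.97 and 12.91, above every sham array. Other genes of these lists also had an array that stood apart. Fgg, a fibrinogen chain, read 7.44, 9.14 and 7.67 without surgery, and A2m, an acute phase protease inhibitor, read 7.72, 9.32 and 7.72, with no surgery replicate 2 highest in both. The values of that unoperated array thus set part of the spread in these lists. Fos (0.12 ± 0.21), Egr1 (-0.01 ± 0.22), Sox9 (-0.27 ± 0.24) and Krt20 (0.64 ± 0.41) were not called. Atf3, a stress-induced transcription factor, differed by -0.68 ± 0.22 (adjusted p = 0.126), with sham values of 8.11, 8.54 and 8.44 all below unoperated values of 8.88, 9.44 and 8.82. The 39-array model called Atf3 and Jun lower and, in the cytokine list, the chemokine Cx3cl1 higher (0.58, adjusted p = 0.0128), with no other call in these 5 lists. The difference between the nephron change and that of the other lines was called higher by limma for Cx3cl1 (0.83, adjusted p = 0.0239). It was also called higher for the interferon-response genes Ifit2 (0.82, adjusted p = 0.026) and Tap1 (0.71, adjusted p = 0.0441). The nephron changes of these genes, 0.58, 0.40 and 0.38, were not called in the main model. The interferon list had a median of 0.09 in the nephron and of -0.41, -0.28 and -0.40 in the interstitial, endothelial and myeloid lines.

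Metabolic, hormonal and segment lists held at most 1 call each, near the 1.62% called over all genes. Hsd11b1, which regenerates active glucocorticoid, read 9.98, 10.16 and 9.67 after sham surgery and 11.24, 10.82 and 11.11 without, and fell by 1.12 (SE 0.23, adjusted p = 0.00569). The groups were clear of each other, and the call was lost narrowly without no surgery replicate 1 (0.0538) or sham replicate 3 (0.054). Hsd11b1 was the single call among 16 androgen-dependent and male-type tubule genes. Of these 13 lay below 0, as did 41.2% of all genes, with a median of -0.25. Cyp4a12a, a male-type fatty acid hydroxylase, read 11.69, 11.91 and 11.14 against 12.68, 12.68 and 12.70. All its sham arrays were lower, but the difference of -1.11 ± 0.53 was not called (adjusted p = 0.386). Of 24 glucocorticoid targets, Tat, tyrosine aminotransferase, fell (-0.51, adjusted p = 0.0404) and 0 rose. Its level was low, at 6.22 to 6.39 after sham surgery, and its call was lost without sham replicate 1 (0.0964), 2 (0.143) or 3 (0.0927) or no surgery replicate 1 (0.412) or 3 (0.0711). Tat also lost it in the fit of the 6 arrays alone (0.0851) and with the replicate block (0.0546). Fkbp5, a co-chaperone strongly induced by glucocorticoids, differed by 0.66 ± 0.39 (adjusted p = 0.526), and Tsc22d3 by 0.15 ± 0.22.

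Plin2, the coat protein of lipid droplets, rose by 0.62 ± 0.14 (adjusted p = 0.0122) and was the 1 call among 23 PPAR alpha and fasting genes. Stard4, a cholesterol carrier, rose by 0.55 ± 0.12 (adjusted p = 0.0148), 1 of 16 genes of cholesterol synthesis. In that list 14 of the 16 lay above 0, as did 11319 of all 19244 genes. Cyp2b10, a drug-metabolising P450 enzyme, rose by 0.69 ± 0.18 (adjusted p = 0.0386), with sham values of 6.47, 7.26 and 6.61 against 6.25, 5.96 and 6.07. Rpl22, a ribosomal protein, rose by 0.49 ± 0.11 (adjusted p = 0.0116), 1 of 20 in its list. Each of these 4 calls was lost without some arrays. Plin2 and Stard4 lost it without sham replicate 1 or 3 or no surgery replicate 1 or 3 (0.0503 to 0.0801 and 0.0568 to 0.0819). Rpl22 lost it without sham replicate 1 or no surgery replicate 2 or 3 (0.0711 to 0.0796), and Cyp2b10 without any array except sham replicate 1 (0.057 to 0.261). No call was made among 22 genes of oxidative phosphorylation, 11 NRF2 targets, 12 p53 targets, 19 hypoxia and glycolysis genes, 10 lipogenesis genes, 18 genes of potassium, sodium and mineralocorticoid handling, 19 matrix genes and 20 growth and imprinted genes. At an unadjusted p under 0.05 these lists held 1, 2, 2, 4, 0, 1, 0 and 3 genes in limma, in the same order. Of all 19244 genes, 2337 had such a p. The 39-array model added calls for Hmox1 (-0.65) among the NRF2 targets, Car9 (-0.59) and Pfkfb3 (0.50) among the hypoxia and glycolysis genes, and Sc5d (0.41) among the cholesterol genes.

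Among the proximal, distal convoluted and collecting duct markers 3 genes fell and 0 rose, beside 0.904% of all genes that fell. Single calls in lists of 16 to 32 genes are not read as a change of a segment. Dpep1, a dipeptidase of the proximal brush border, read 10.34, 10.16 and 10.71 against 11.13, 11.37 and 11.19 and fell by 0.82 (SE 0.20, adjusted p = 0.0279), 1 of 32 proximal genes. Slc8a1, the sodium-calcium exchanger of the distal convoluted tubule, read 8.29, 8.08 and 7.78 against 8.70, 8.62 and 8.88 and fell by 0.68 (SE 0.16, adjusted p = 0.0236), 1 of 17. Foxi1, the transcription factor of intercalated cells, read 8.89, 8.94 and 9.03 against 10.05, 9.21 and 9.62 and fell by 0.67 (SE 0.16, adjusted p = 0.017), 1 of 16 collecting duct genes. Groups did not overlap in any of the 3, and the unoperated values of Foxi1 were the most spread. Each call held without some arrays and was lost without others: Dpep1 without any array but sham replicate 3 (0.0645 to 0.143), Slc8a1 without any but sham replicate 1 and no surgery replicate 2 (0.0588 to 0.187), and Foxi1 without any but sham replicate 3 and no surgery replicate 2 (0.0504 to 0.24). In the 39-array model, where 2.63% of all genes fell, the falls numbered 4 of 17 in the distal convoluted list (Slc8a1, Trpm6, Wnk1 and Tsc22d2), 2 of 16 in the collecting duct list (Foxi1 and Atp6v0d2) and 1 of 32 in the proximal list (Dpep1).

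The list means of the distal convoluted tubule and collecting duct were also lower in the sham arrays. The distal convoluted tubule markers averaged 10.19 to 10.24 after sham surgery and 10.33 to 10.43 without. The collecting duct markers averaged 9.05 to 9.18 and 9.19 to 9.30, and neither list overlapped. The sham means also lay below those of untagged sham kidneys (10.35 to 10.41 and 9.34 to 9.40). The share of their signal that came from tagged ribosomes was not tested. Thick ascending limb markers overlapped (10.48 to 10.70 and 10.51 to 10.54), with 0 of 17 called. Umod, uromodulin, was at 13.02 to 13.09 and 13.09 to 13.16. Slc12a1, Slc12a3, Slc5a2 and Nphs1, which mark the thick limb, the distal convoluted tubule, the early proximal tubule and the podocyte, differed by -0.08, -0.18, -0.24 and 0.09 and were not called. Neither was Aqp2, the water channel of principal cells, at 0.61 ± 0.27. The endothelial (24), interstitial (22), adipocyte (17), podocyte (9), thin limb (8) and erythroid (3) lists gave 0 calls in the same model, with 3, 0, 1, 0, 2 and 0 genes at an unadjusted p under 0.05. Over all genes 1.62% were called and 2337 of 19244 had such a p. In the 39-array model Esam and Mmrn2 of the endothelial list and Cryab of the thin limb list were called higher.

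**Figure D4:**
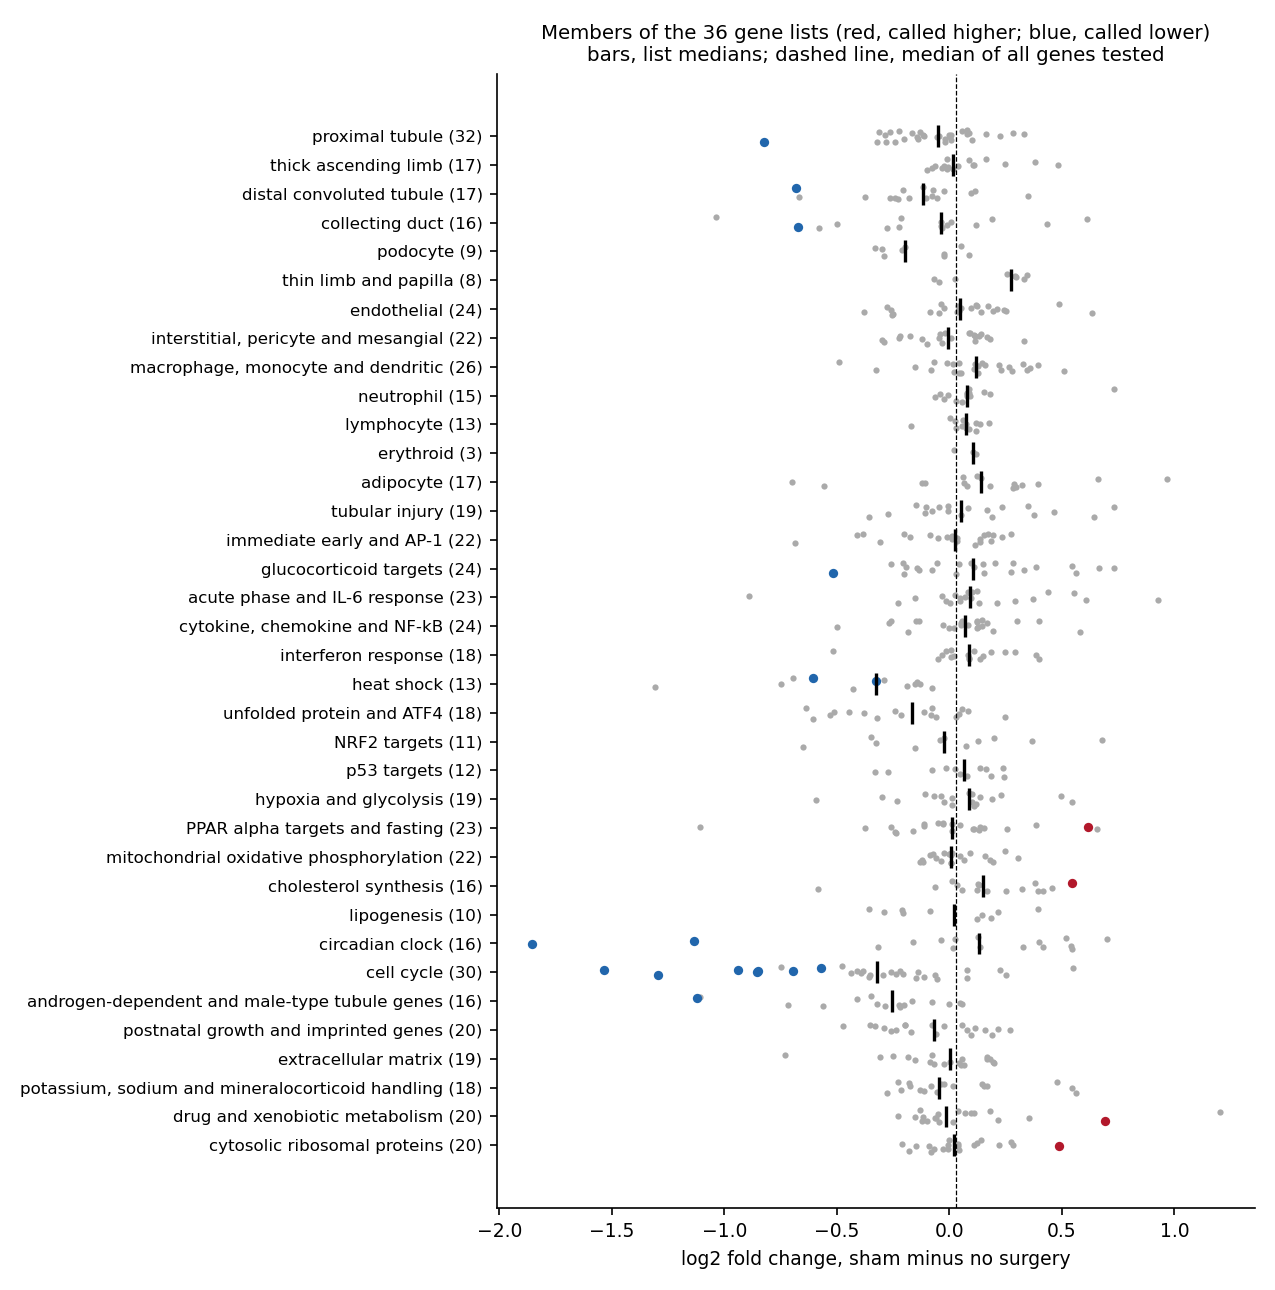
Each row is a gene list, each point is a tested member at its log2 fold change (sham minus no surgery), and the bar in a row is the list's median. Cell cycle and heat shock have the lowest medians (both -0.32), and most other medians lie within 0.2 of 0.

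The nephron change was then tested against the mean sham change of the interstitial, endothelial and myeloid lines, with no arrays shared between the sides. This difference was called for 209 genes (1.09%), 93 (0.483%) with a higher and 116 (0.603%) with a lower change in the nephron. Of the 311 genes called in the nephron, 153 also had a called difference. The nephron change enters both tests, so a gene called in the nephron is more likely to have a called difference. The overlap is therefore not read as a sign of a change particular to the nephron. Among the 174 genes that fell, 41 had values below 0 in all 3 other lines, and among the 137 that rose, 13 had values above 0 in all 3. The same shares over all genes were not counted, so these counts are not read as a shared response. The other lines had 1985 (10.3%), 142 (0.738%) and 323 (1.68%) calls of their own, in the order interstitial, endothelial and myeloid. Genes that rose in both the nephron and the interstitial line numbered 2, Klhl32 and Rpph1, both named for this overlap after it was seen.

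Klk1b22 had the highest difference, 3.39, since its sham change was 2.57 in the nephron but -1.15, -2.28 and 0.98 in the interstitial, endothelial and myeloid lines. Of the 3, none was called. The difference was 2.44 for Slco4c1, 1.93 for Adgre5, 1.63 for Alb and 1.34 for Fmod, which fell by 0.87 in the interstitial line (adjusted p = 0.0125). Abcc9, a subunit of ATP-sensitive potassium channels, had a difference of 1.12 while its nephron change of 0.70 ± 0.23 was not called. On the other side, Ptpn22 had a difference of -2.56, and its change in the other lines was between -0.08 and 0.05. Glp1r (-2.24), Wdfy1 (-1.96) and Serpinb8 (-1.69) were alike in that no other line had a call for them. Arntl had a difference of -2.08, with values of 0.29, 0.46 and -0.08 in the interstitial, endothelial and myeloid lines, none called. Fcamr had a difference of -1.89 and rose by 1.13 in the interstitial line (adjusted p = 0.00744).

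**Figure D5:**
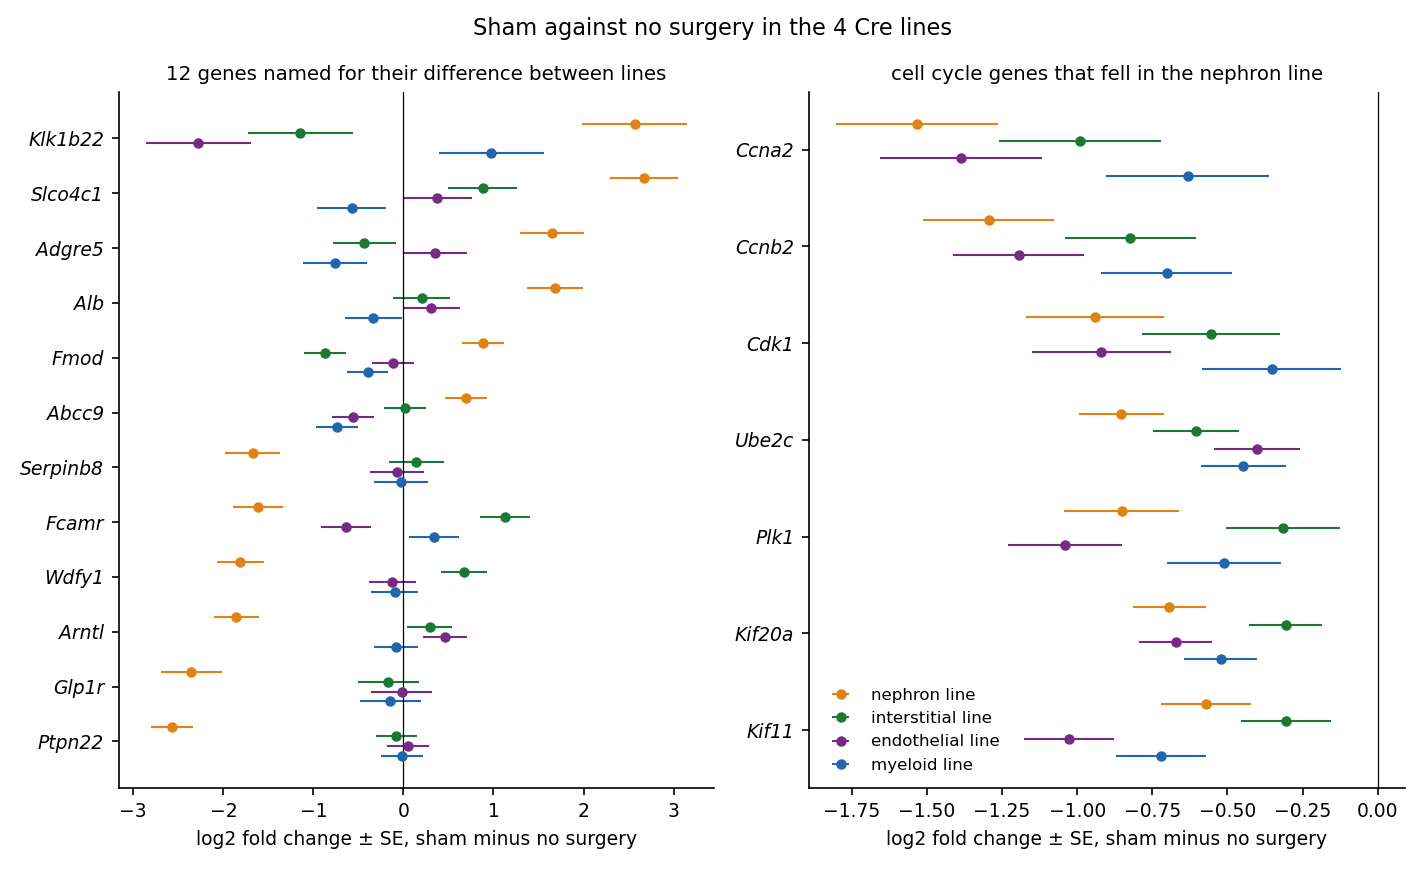
Points are sham effects (log2, sham minus no surgery) with ± SE in the nephron, interstitial, endothelial and myeloid lines for 12 genes named for their difference between lines and the 7 cell cycle genes that fell in the nephron. In the first set, picked by that difference, the nephron points stand apart from the others, for example -2.57 for Ptpn22 against -0.08 to 0.05. For Ccna2 all 4 lines lie below 0.

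Wild-type mice without the tag, 8 weeks old and operated in the same way (2 arrays), show what the purification yields without tagged ribosomes. In a limma model of all 57 arrays, 5560 of 19302 genes (28.8%) were higher and 3760 (19.5%) lower in nephron sham arrays than in wild-type sham arrays. Of the 137 genes that rose after sham surgery, 101 were above the wild-type level, and of the 174 that fell, 50 were. Both comparisons use the same nephron sham arrays, so a gene chosen for high or low sham values is moved the same way here. The gap between these counts is therefore not read as a result. Slco4c1 was below it, at a mean of 8.03 after sham surgery against 10.77 in wild-type sham kidneys. Adgre5 was below it by 0.73, though that difference was not called (adjusted p = 0.0973). Of the other genes that rose most, Niban1 (-2.39), Slco2b1 (-1.78), Fmod (-1.76), Klhl6 (-0.87), Colgalt2 (-0.68) and Tlr12 (-0.53) were called below it. Alb stood 1.66 and Noct 1.38 above the wild-type level. Klk1b22 (3.26), Smim26 (2.39), Cox6a2 (1.41), Car11 (0.59) and Akap1 (0.48) were also called above it. BC018473 (-0.03) and Glp1r (-0.01) were at it. Of the other genes that fell most, Fcamr (-1.20), Arntl (-1.14), Pde6a (-1.01), Olfml2b (-0.85) and Ccnb2 (-0.60) were called below it. Mdk (1.39), Ptpn22 (0.84) and Fkbp1b (0.63) were called above it, and the rest were not called. Among list genes that fell, Slc8a1 (-2.26), Hsd11b1 (-1.10), Dpep1 (-1.06), Cdk1 (-0.67) and Hspa8 (-0.44) were called below it. Foxi1 (0.56) and Bag3 (0.52) were called above it, and Nfil3, Ube2c and Tat were not called. For genes near or below the wild-type level, the share of signal that came from tagged ribosomes was not tested.

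Called genes lay near each other in the genome more often than the count over all genes. Of 311 called genes, 79 (25.4%) had another called gene among the 5 tested genes on either side, whereas 14.5% of all 19228 placed genes had a called gene there. Linking called genes that lay within 5 tested genes of each other gave 38 groups, of which 3 held 3 genes. In the first, Niban1 and Colgalt2 rose and 1700025G04Rik, which lies between them, fell. The others were Xrcc3, Zfyve21 and Ppp1r13b, and Zpld1, Nxpe3 and Pcnp, each with calls in both directions. Of 344 genes with Zfp symbols, zinc finger genes that often stand in clusters, 10 fell and 0 rose, beside 0.904% and 0.712% of all genes.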

How the data were processed

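The authors deposited linear intensity values per probe set from Affymetrix Expression Console 1.3.1 with RMA, per the submitters' processing notes; build and annotation version are not given in the sources used here. The plan had assumed log2 values, so log2 was taken. The members and gene lists were chosen with earlier results of these data known.

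Of 35556 probe sets, 21789 had 1 gene symbol, 1621 several and 12146 none; the probe set with the highest mean stood for a gene. Genes above log2 5 in at least 3 arrays were kept. limma 3.58.1 (R 4.3.3) was fitted to 45 arrays in 15 groups, with Benjamini-Hochberg adjustment over 19244 genes, and a contrast tested the nephron change minus the mean of the other lines. Alternatives were fits of 6, 12, 39 and 57 arrays, quantile scaling, median centring, other filters, probe set means, log2 of value plus 16, robust eBayes, a replicate block, and leaving out each array; list counts in the 39-array model and without single arrays were added after seeing the data.

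Genes were named by rule: the 15 highest and 15 lowest called genes without overlap (no predicted genes or small RNAs), up to 4 called members of each list, a panel of 31 genes (28 tested), and the 6 highest and lowest differences between lines. Same-numbered replicates correlated at 0.0959, 0.0866 and 0.294 in their deviations, so they were not treated as pairs. No 2 arrays were identical. The model was tested on simulated data. The number of arrays limits precision. Promoters are RefSeq's (GRCm38.p6). Figures used matplotlib 3.10.9.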

Additional observations from a re-analysis of the deposited data

Results flagged for a closer look

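For 12 genes the nephron sham change differed from the mean sham change of the other 3 lines by the limma test of that difference (log2 units, with adjusted p). Higher in the nephron were Klk1b22 at 3.39 (0.00635), Slco4c1 at 2.44 (0.00211), Adgre5 at 1.93 (0.0114), Alb at 1.63 (0.0189), Fmod at 1.34 (0.00635) and Abcc9 at 1.12 (0.0303). Lower were Ptpn22 at -2.56 (4.02e-07), Glp1r at -2.24 (0.00166), Arntl at -2.08 (0.000118), Wdfy1 at -1.96 (0.000363), Fcamr at -1.89 (0.00145) and Serpinb8 at -1.69 (0.00928). Sham and unoperated mice differed in age in the nephron line and not in the other lines, and line and age gap cannot be told apart.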

How the results depend on the processing

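The number of called genes depended on the arrays that shared the estimate of spread. It was 311 in the model reported, 973 with the 6 arrays alone, 1067 with the 12 nephron arrays, 907 with the 39 arrays of the 4 lines and 335 with all 57. Leaving out 1 array gave 105 to 220 calls: 113 without sham replicate 1, 217 without sham replicate 2, 154 without sham replicate 3, and 105, 149 and 220 without no surgery replicates 1, 2 and 3. The difference between lines gave 209 calls, 830 in the 39-array model, 126 after median centring, and 69 to 162 without single arrays. The scaling alternatives gave 274 calls (quantile) and 217 (median centring).

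With the replicate number as a block there were 290 calls, 254 of them shared with the model reported; the numbers did not pair the arrays. Of 44 called named genes, 0 changed sign under the 18 alternatives and 20 kept their call in every alternative that tested them; 23 lost it without some array. Genes never called could change sign: Egr1 was 0.0014 after quantile scaling, 0.15 without sham replicate 1 and 0.18 without no surgery replicate 2, and Pdk4 was 0.042 without sham replicate 1; over all single arrays left out they ran from -0.15 to 0.18 and from -0.52 to 0.042. The number of cell cycle genes that fell ran from 4 to 7 without single arrays. With 3 arrays a group, small changes at low signal are not resolved.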

Other observations

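Other called genes, chosen after their values were seen, are given as values alone. Id3, an inhibitor of basic helix-loop-helix factors, read 7.87, 7.56 and 7.48 after sham surgery and 8.61, 8.38 and 8.39 without, and fell by 0.83 (limma, adjusted p = 0.00246). Gadd45g, a growth arrest gene, read 9.25, 9.10 and 8.90 against 9.82, 10.19 and 10.29 and fell by 1.02 (adjusted p = 0.0217). In 6 called genes the groups overlapped, and Cyp2d22, a P450 enzyme, had the largest change of them, 1.28 (adjusted p = 0.0298), with values of 10.00, 10.96 and 11.17 against 9.02, 10.07 and 9.19. The others were Rnf39, Trav19, Cldn6, Mas1 and Zfp442.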
